A study of Mus musculus with 8 samples.

Results

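Bile acids are made from cholesterol in hepatocytes, and 10 genes of this pathway were followed in mouse liver. They encode the enzymes CYP7A1, HSD3B7, CYP8B1, AKR1D1, CYP27A1 and CYP7B1, the conjugating proteins BAAT and SLC27A5, the bile acid receptor FXR (Nr1h4) and its target SHP (Nr0b2). They were chosen by name as the core of bile acid synthesis and its feedback, with earlier results of these data known. Each was found by its gene symbol and had exactly 1 transcript cluster (a set of probes summarised into 1 value) among 35556 clusters, of which those with 1 symbol stood for 19938 genes.

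RNA came from livers of 40 male C57Bl/6J mice, 10 per group, with no genetic alteration named in the labels. LFD mice ate a low-fat diet with 13% of calories from fat and drank deionized water, and HFD mice ate a diet with 42% of calories from fat and drank the same water. LFD+As and HFD+As mice ate these diets with sodium arsenite in the water, at 3 mg of inorganic arsenic per litre. The labels' protocols give 10 weeks of exposure and the source label 90 days, a difference that could not be resolved. Equal amounts of RNA from 5 mice were pooled for each array, so each group has 2 Affymetrix arrays (replicate 1 and replicate 2), and all errors and p-values below measure the spread between pools.

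A classic and an acidic route lead from cholesterol to bile acids. In the first, CYP7A1 takes the rate-limiting step, and CYP8B1 then sets the share of cholic acid. In the second, CYP27A1 and CYP7B1 oxidise the side chain and the ring. At the end of both routes, SLC27A5 and BAAT activate the acids and join them to taurine. Bile acids bind FXR, which induces SHP, and SHP restrains LRH-1 (Nr5a2) and HNF4A, the factors that drive Cyp7a1 and Cyp8b1.

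Promoter sequences are shown for 3 of the 4 genes whose RefSeq promoter held letters of a binding element of these factors. The RefSeq table of build GRCm38.p6 had an entry for 6 of the 10 genes (Cyp8b1, Cyp27a1, Akr1d1, Hsd3b7, Nr1h4 and Nr0b2), and each window covers the 250 bases before an annotated start, written 5′ to 3′ on the gene's strand. Both strands were searched for the HNF4 element CAAAGTCCA, the LRH-1 core TCAAGG, the nuclear receptor half-site AGGTCA and the IR-1 element of FXR, which is an inverted repeat of that half-site with 1 base between. Capitals mark the matches.
Cyp8b1, chr9:121916306-121916555, minus strand: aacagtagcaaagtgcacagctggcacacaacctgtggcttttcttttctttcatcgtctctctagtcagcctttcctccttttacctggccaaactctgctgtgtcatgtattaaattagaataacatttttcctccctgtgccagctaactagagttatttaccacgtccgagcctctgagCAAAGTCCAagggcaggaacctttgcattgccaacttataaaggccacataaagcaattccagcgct
Nr0b2, chr4:133553126-133553375, plus strand: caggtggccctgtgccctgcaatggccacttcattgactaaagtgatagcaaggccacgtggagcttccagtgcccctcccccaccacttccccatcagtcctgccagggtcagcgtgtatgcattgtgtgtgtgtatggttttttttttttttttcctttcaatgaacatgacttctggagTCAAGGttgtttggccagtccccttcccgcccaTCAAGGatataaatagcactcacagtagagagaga
Nr1h4, chr10:89506659-89506908, minus strand: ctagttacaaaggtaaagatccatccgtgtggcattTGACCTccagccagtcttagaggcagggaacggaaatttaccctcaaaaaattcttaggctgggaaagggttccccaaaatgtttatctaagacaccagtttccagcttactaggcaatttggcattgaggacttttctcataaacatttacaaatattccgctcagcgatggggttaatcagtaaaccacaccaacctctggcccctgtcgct
The HNF4 element lay 67 to 59 bases before the start of Cyp8b1 and was found in 0.384% of 32851 promoters of this length. LRH-1 cores lay 68 to 63 and 35 to 30 bases before the start of Nr0b2, and the core was found in 12.5% of promoters. Akr1d1 held a core at 213 to 208 bases that overlaps a half-site at 210 to 205, and another half-site at 232 to 227, and Nr1h4 held a half-site at 214 to 209, against 14% of promoters. Cyp27a1 and Hsd3b7 held none of the 4 elements, and the IR-1 element was found in 0 of the 6 promoters and in 0.00609% of all. The starts of Cyp8b1, Nr0b2 and Hsd3b7 are the 5′ ends of the annotated genes. The start used for Nr1h4 is an internal one, 26987 bases inside the annotated gene. Its printed window thus lies wholly within the gene and may itself be transcribed. The starts used for Cyp27a1 and Akr1d1 lie 387 and 195 bases inside, and the Akr1d1 window, part of which may be transcribed, is not printed. A match is a run of letters, not a shown binding site. The search took exact letters only, so the lack of a match does not show that a site is absent.

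All 10 genes were well within the measured range. Their mean log2 signals over the 8 arrays lay between 9.61 for Nr0b2 and 12.41 for Cyp27a1, against a minimum of 6.97 for the 11963 genes tested, and all 10 passed that filter, which used the mean over all arrays. Differences are log2 fold changes from limma with 95% intervals, and a gene was called where its p, adjusted by Benjamini-Hochberg over all genes tested, was under 0.05. Levels of different genes are not compared, since array signals depend on the probes. Array medians lay between 7.08 and 7.18. The array HFD replicate 2 had 9 of the 10 genes below their own mean, and the other arrays had 3 to 6.

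Cyp7a1 had signals of 11.84 and 11.81 in the LFD pools, 12.24 and 11.59 with LFD+As, 11.12 and 11.72 on HFD and 11.65 and 11.95 with HFD+As. The 2 LFD pools agreed within 0.03, while pools of the other groups differed by 0.30 to 0.65, and only the HFD pools both lay below LFD. The limma difference of HFD from LFD was -0.40 (95% interval -0.85 to 0.05, adjusted p = 0.550), and that of HFD+As from LFD was -0.03 (-0.48 to 0.43). The scatter of this gene between pools was larger than that of 98.7% of the genes tested. The interval of HFD+As spans 0.716 to 1.34 times the LFD level.

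Hsd3b7, whose product acts right after CYP7A1 or CYP7B1 on the sterol ring, had signals of 11.93 and 11.85 in the LFD pools, 11.73 and 11.80 with LFD+As, 11.86 and 11.48 on HFD and 11.48 and 11.65 with HFD+As. Both pools of LFD+As and of HFD+As lay below both LFD pools. HFD+As stood at -0.32 from LFD (-0.62 to -0.03, adjusted p = 0.123), LFD+As at -0.12 (-0.41 to 0.17) and HFD at -0.22 (-0.51 to 0.07).

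Cyp8b1 had signals of 10.68 and 10.61 in the LFD pools, 11.12 and 10.94 with LFD+As, 10.93 and 10.47 on HFD and 10.97 and 10.73 with HFD+As. Both arsenite groups lay above both LFD pools, and the HFD pools lay on either side. The difference from LFD was 0.39 for LFD+As (0.06 to 0.72, adjusted p = 1.0), 0.20 for HFD+As (-0.13 to 0.53) and 0.06 for HFD (-0.27 to 0.39). Akr1d1, which reduces the ring double bond of both routes, had signals of 11.34 and 11.16 in the LFD pools, 11.15 and 11.30 with LFD+As, 10.78 and 11.002 on HFD and 11.02 and 11.28 with HFD+As. Both HFD pools lay below both LFD pools, with a difference of -0.36 (-0.65 to -0.07, adjusted p = 0.348), and in HFD+As the difference was -0.10 (-0.39 to 0.19).

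Cyp27a1 had signals of 12.64 and 12.64 in the LFD pools and 12.32 and 12.57 with LFD+As. On HFD they were 12.44 and 12.08, and with HFD+As 12.26 and 12.35. All 6 pools of the other groups lay below both LFD pools. The differences were -0.19 for LFD+As (-0.49 to 0.10), -0.38 for HFD (-0.68 to -0.08, adjusted p = 0.339) and -0.34 for HFD+As (-0.64 to -0.04, adjusted p = 0.111). Cyp7b1 had signals of 12.01 and 12.33 in the LFD pools, 12.68 and 12.47 with LFD+As, 12.50 and 11.90 on HFD and 12.67 and 12.52 with HFD+As. All 4 arsenite pools lay above both LFD pools, and the HFD pools spread by 0.60 around them. The difference was 0.41 for LFD+As (0.03 to 0.79), 0.03 for HFD (-0.35 to 0.41) and 0.43 for HFD+As (0.05 to 0.81, adjusted p = 0.119).

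Slc27a5 (Entrez gene 26459), which encodes the bile acid CoA ligase that precedes conjugation, fell in HFD+As and was the only member called in a comparison of 2 groups. It had signals of 12.65 and 12.61 in the LFD pools, 12.27 and 12.46 with LFD+As, 12.54 and 12.17 on HFD and 11.93 and 11.97 with HFD+As, so both HFD+As pools lay below all 6 others. Against LFD this was a fall of 0.68 on the log2 scale (SE 0.14, 95% interval -0.97 to -0.39, adjusted p = 0.00809), or 1.60-fold lower, in 2 pools against 2. In liver RNA, fewer cells of a type and less RNA per cell cannot be told apart. The differences of LFD+As and HFD from LFD were -0.27 (-0.56 to 0.03) and -0.27 (-0.57 to 0.02), those of HFD+As from HFD and from LFD+As -0.41 (adjusted p = 0.0908) and -0.42 (adjusted p = 0.0654). The call ended without LFD replicate 1 (-0.66, adjusted p = 0.0612), without HFD+As replicate 1 (-0.66, adjusted p = 0.0608) and when each of the 35556 clusters was tested singly (adjusted p = 0.102), a setting in which 0 clusters were called.

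Baat joins the activated acids to taurine. It varied least of the 10 genes between pools of a group, with a scatter larger than that of 28.6% of genes. It had signals of 11.64 and 11.56 in the LFD pools, 11.40 and 11.46 with LFD+As, 11.45 and 11.34 on HFD and 11.57 and 11.35 with HFD+As. The differences from LFD were -0.17 (-0.43 to 0.09), -0.21 (-0.47 to 0.05) and -0.14 (-0.40 to 0.12), in that order, and none was called.

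Nr1h4 had signals of 10.59 and 10.42 in the LFD pools, 10.79 and 10.55 with LFD+As, 10.54 and 10.82 on HFD and 10.73 and 10.92 with HFD+As. Both HFD+As pools lay above both LFD pools, with a difference of 0.32 (0.02 to 0.62, adjusted p = 0.135), and the other 2 groups overlapped LFD with differences of 0.17 each. Nr0b2, the SHP gene, had signals of 10.04 and 9.22 in the LFD pools, 9.38 and 10.38 with LFD+As, 9.64 and 9.04 on HFD and 9.84 and 9.33 with HFD+As. Pools of 1 group differed by up to 1.0, more than the largest gap of 0.54 between group means, and the scatter was larger than that of 99.7% of genes. The intervals against LFD reached from -0.42 to 0.92 in LFD+As, from -0.96 to 0.38 in HFD and from -0.72 to 0.63 in HFD+As. In HFD+As this spans 0.609 to 1.54 times the LFD level, and differences within it were not detectable with these pools.

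**Figure D1:**
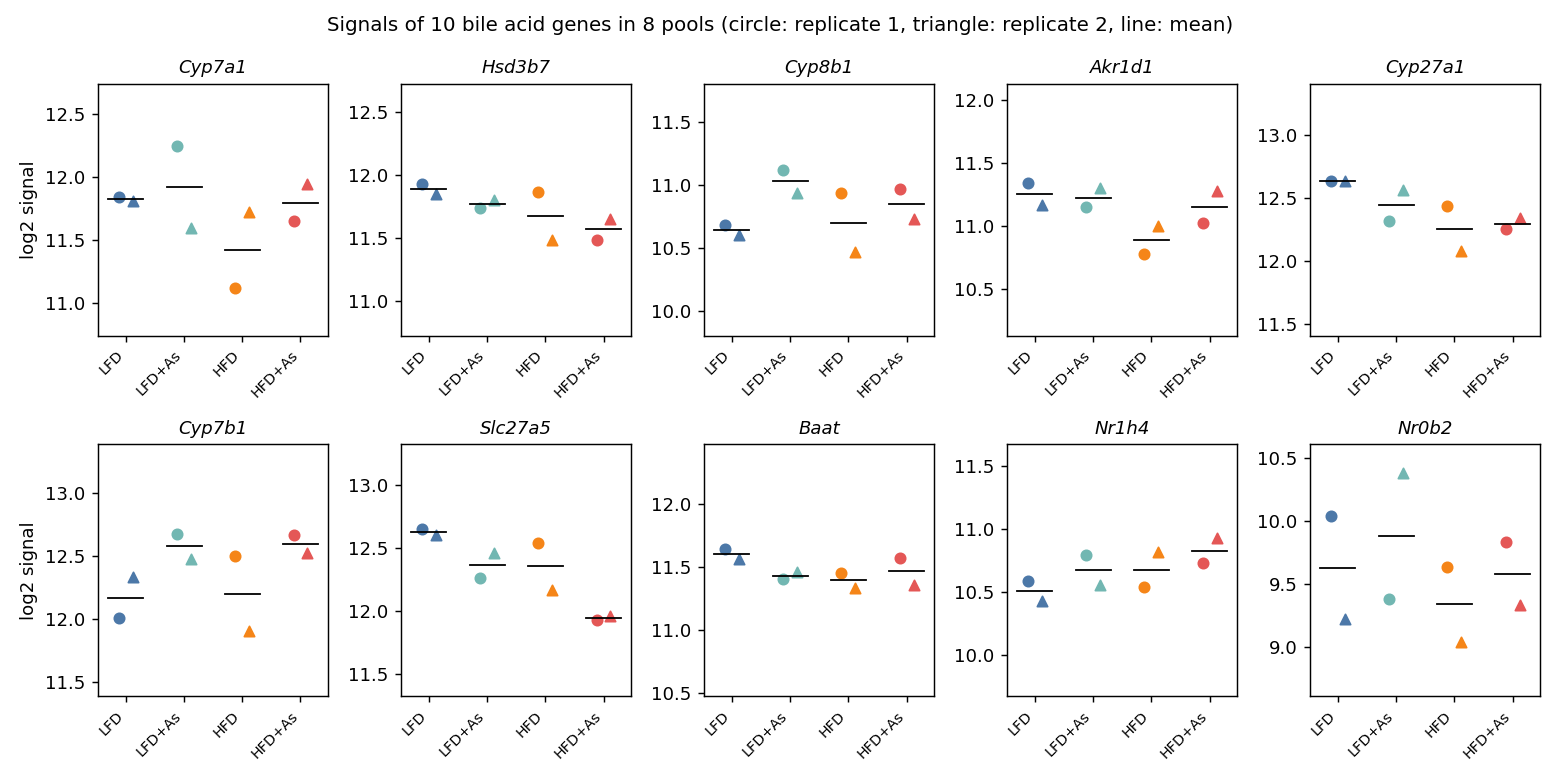
Log2 signal of each of the 10 genes in each of the 8 arrays, with a circle for replicate 1, a triangle for replicate 2 (pools of 5 mice) and a line for the mean of each group; each panel has its own axis. The Slc27a5 pools of HFD+As, at 11.93 and 11.97, lie below all others, and the Nr0b2 pools of 1 group differ by up to 1.0.

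The question of the design was how each exposure alone, and both together, differ from the low-fat diet. LFD+As against LFD called 0 of the 10 genes, with 8 of 11963 genes called in all (0.0669%), and 2 members had an unadjusted p under 0.05, as did 3.35% of genes. Both pools lay above both LFD pools for 2 members (Cyp8b1 and Cyp7b1; 12.7% of all genes did) and below for 4 (Cyp27a1, Hsd3b7, Baat and Slc27a5; 15.8% of genes). HFD against LFD called 0 of 10, with 0.460% of genes called, and 2 members had an unadjusted p under 0.05, as did 10.3% of genes. There both pools lay below for 5 members (16.5% of genes) and above for 0 (21.7% of genes). The median of the 10 differences was -0.25 against 0.01 over all genes. Leaving out single arrays gave Cyp7a1 values from -0.70 to -0.10, Cyp27a1 from -0.56 to -0.20 and Slc27a5 from -0.46 to -0.09. Akr1d1 ranged from -0.48 to -0.25 and Baat from -0.27 to -0.15. The median deviation of the members from their own means was 0.03 in HFD replicate 1 and -0.20 in HFD replicate 2.

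HFD+As against LFD called 1 of 10, with 16.0% of genes called (430 higher and 1479 lower), and 5 members had an unadjusted p under 0.05, as did 30.8% of genes. Both pools lay above for 3 members (Cyp8b1, Cyp7b1 and Nr1h4; 13.5% of genes) and below for 3 (Cyp27a1, Hsd3b7 and Slc27a5; 41.4% of genes). The median of the 10 differences was -0.07 against -0.10 over all genes. The share of members called, 1 of 10, lay near that of all genes and is not read as a result about them. These 3 comparisons share the LFD arrays.

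**Figure D2:**
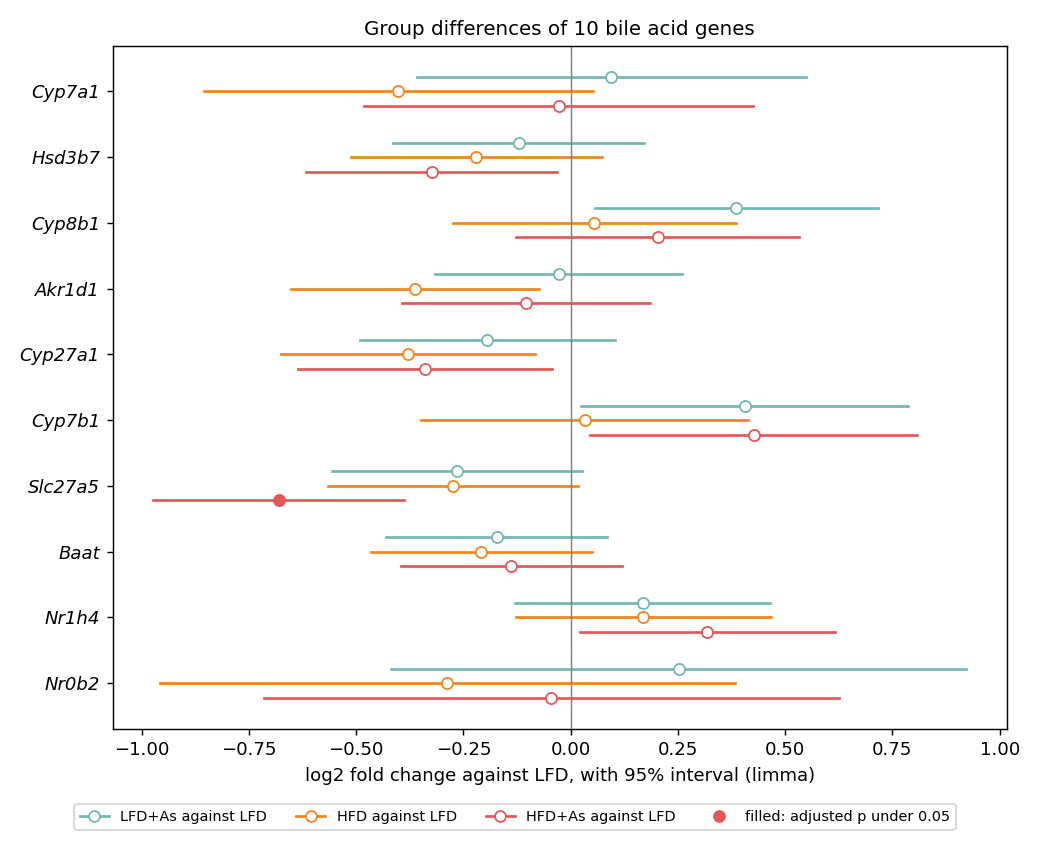
Log2 fold change of each of the 10 genes against LFD in LFD+As, HFD and HFD+As, with 95% limma intervals; filled points have an adjusted p under 0.05. Slc27a5 in HFD+As, at -0.68, is the only filled point, and most intervals include 0.

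HFD+As was also set against each single exposure. Against HFD 0 of 10 were called (3.63% of genes), 2 were negative and 8 positive, and the median was 0.15 against -0.13 over all genes. Cyp7b1 stood at 0.39 (0.01 to 0.77, adjusted p = 0.179), Cyp7a1 at 0.37 (-0.08 to 0.83) and Akr1d1 at 0.26 (-0.03 to 0.55), none of them called. Single arrays moved these values: Cyp7b1 stood at 0.69 without HFD replicate 1 and 0.09 without HFD replicate 2, Cyp7a1 at 0.07 and 0.67, and Akr1d1 ranged from 0.13 (HFD+As replicate 2 left out) to 0.39 (HFD+As replicate 1 left out). With a trend on the genomic length of genes removed, Cyp7b1 stood at 0.63 and Akr1d1 at 0.45 (adjusted p = 0.139 for both). Without HFD replicate 2, Slc27a5 was called in that comparison (-0.59, adjusted p = 0.0325), and without HFD replicate 1 it stood at -0.22. Against LFD+As 0 of 10 were called (10.3% of genes), with a median of -0.13 against -0.09. Without HFD replicate 1 or 2, Slc27a5 was called there (adjusted p = 0.0401).

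The interaction, which is the arsenite difference on HFD minus that on LFD, called 0 of 10 genes and 0 of all genes (0%, with 1659 genes at an unadjusted p under 0.05 in limma). The largest member value was 0.29 for Akr1d1 (-0.12 to 0.70), with Cyp7a1 at 0.28 (-0.36 to 0.92) and Slc27a5 at -0.14 (-0.55 to 0.27). For Cyp7a1 the interval spans ratios from 0.778 to 1.89. Leaving out single arrays gave Cyp7a1 values from -0.05 (without LFD+As replicate 2) to 0.60 (without LFD+As replicate 1), and with the span trend removed Akr1d1 stood at 0.48 (0.09 to 0.87, adjusted p = 0.450). Averaged over both waters, the diet difference called 1 of 10 (7.65% of genes): Slc27a5 fell by 0.34 (SE 0.096, adjusted p = 0.0453), and 8 of 10 members were negative, against 60.5% of all genes. That call ended without LFD replicate 1 (-0.33) or 2 (-0.36), LFD+As replicate 2 (-0.29), HFD replicate 2 (-0.25) and HFD+As replicate 1 (-0.34) or 2 (-0.35), with adjusted p from 0.0657 to 0.217. Without HFD replicate 1, which left 1 HFD array, Cyp27a1 (-0.35) and Hsd3b7 (-0.31) were called in the diet average. With all arrays they stood at -0.26 and -0.21 and were not called. Averaged over both diets, arsenite called 0 of 10 (0.568% of genes), with Cyp7b1 at 0.40 (0.13 to 0.67, adjusted p = 0.174), Cyp8b1 at 0.27 (0.03 to 0.50) and Slc27a5 at -0.34 (-0.54 to -0.13, adjusted p = 0.144).

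Signals also moved with the length of the gene in the genome. Over 11937 genes, deviations from a gene's mean were ranked against its genomic span (first to last base). Spearman's rho was 0.342 and 0.140 for the LFD pools, 0.221 and 0.346 for LFD+As, 0.245 and -0.137 for HFD and -0.454 and -0.293 for HFD+As, as a description across genes, which are not independent. Among the members, Cyp7b1 spans 171947 bases, Nr1h4 79412, Slc27a5 9847 and Cyp8b1 1950. With the trend on span removed, HFD+As against LFD called 3 members: Slc27a5 at -0.65 (adjusted p = 0.0162), Cyp7b1 at 0.70 (adjusted p = 0.0359) and Nr1h4 at 0.55 (adjusted p = 0.0371). In that setting 547 of the 11963 genes tested were called higher and 589 lower. Akr1d1 and Cyp7a1, neither called, changed sign, to 0.08 and 0.01. Over all genes the share of lower calls went from 77.5% to 51.8%, and to 70.4% with quantile normalization. Without LFD replicate 1 it was 40.6%, with 212 genes higher and 145 lower.

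**Figure D3:**
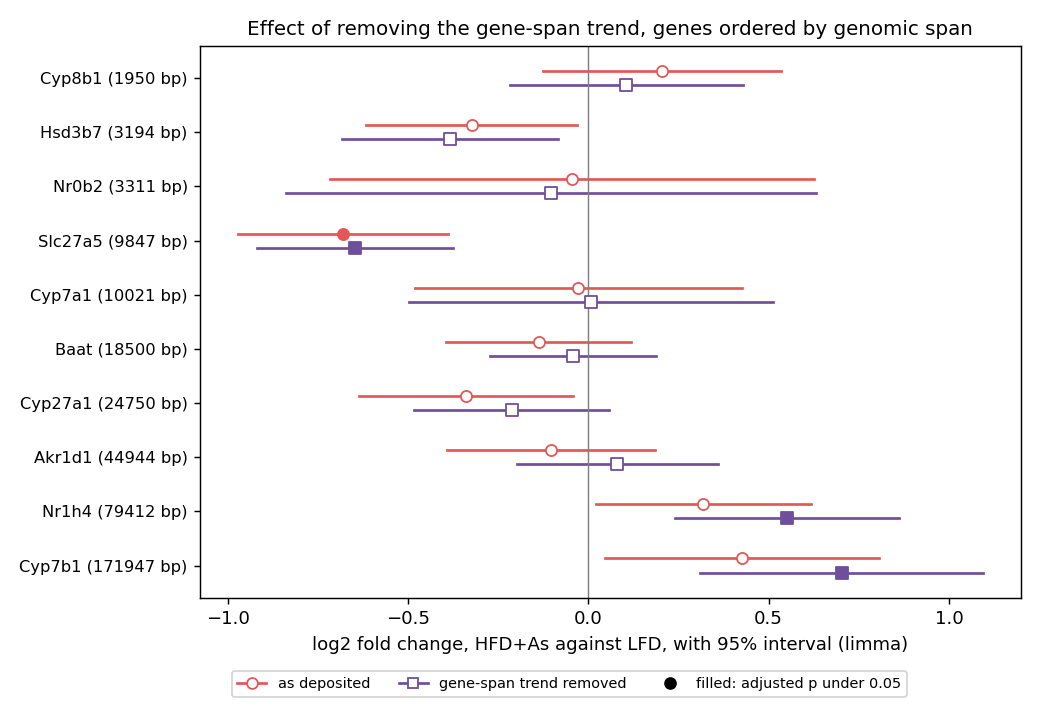
Log2 fold change of HFD+As against LFD with 95% limma intervals for the 10 genes, ordered by genomic span in bases, as deposited (circles) and with the span trend removed (squares); filled symbols have an adjusted p under 0.05. Cyp7b1 and Nr1h4, with the longest spans, are filled only with the trend removed (0.70 and 0.55), and Slc27a5 is filled in both.

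Other genes of the pathway were taken from lists. Of 14 tested genes with further steps of bile acid synthesis, 0 were called in HFD+As against LFD (median -0.05), with Abcd3, a peroxisomal transporter, at -0.39 (adjusted p = 0.0548) and Cyp2c70, the muricholic acid enzyme of mice, at -0.33 (adjusted p = 0.0556). Abcd3 was called without HFD+As replicate 2 (-0.51, adjusted p = 0.0382), and with the span trend removed both stood at -0.18. In LFD+As and in HFD against LFD, 0 genes of all 5 lists were called. Nr1d1, a clock repressor, stood at -0.93 in HFD (adjusted p = 0.201), and was called there when either LFD+As array, with signals of 9.44 and 10.64, was left out (adjusted p = 0.0042). Onecut1 stood at -1.39 in LFD+As (adjusted p = 0.707), where its pools lay far apart at 10.07 and 8.83 against 10.65 and 11.03 in LFD. Without LFD+As replicate 2 that difference was -0.77, and without LFD+As replicate 1 it was -2.01.

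Of 16 tested transporters of bile acids and biliary lipids, 4 fell in HFD+As against LFD and 0 rose, with 15 of 16 negative (median -0.22). Over all genes 16.0% were called, mostly lower, 66.6% were negative and the median was -0.10, so the list is described against a background that was itself lower. Abcb11, the bile salt export pump, had signals of 12.67 and 12.73 in the LFD pools, 12.29 and 12.60 with LFD+As, 12.52 and 12.32 on HFD and 11.98 and 11.81 with HFD+As. Both HFD+As pools lay below all 6 others, a fall of 0.80 from LFD (SE 0.13, adjusted p = 0.00494), and the call held without any 1 array and with the span trend removed (-0.55, adjusted p = 0.0279). Slc10a2, the apical sodium-dependent bile acid transporter, had signals of 9.49 and 9.44 in LFD and 8.60 and 8.90 in HFD+As, and fell by 0.72 (adjusted p = 0.00809). This call ended without LFD replicate 1 (-0.69, adjusted p = 0.0631) and without HFD+As replicate 1 (-0.57, adjusted p = 0.0793). Abcg8, a biliary sterol exporter, fell by 0.60 (adjusted p = 0.0316), and Slco2b1, an organic anion uptake transporter, by 0.58 (adjusted p = 0.0147). The Abcg8 call ended without LFD replicate 1 (-0.42) or HFD+As replicate 1 (-0.44), and the Slco2b1 call without LFD replicate 1 (-0.53), LFD replicate 2 (-0.63) or HFD+As replicate 1 (-0.50). Both ended with the span trend removed (-0.48 and -0.38). Abcb11 was also called lower against HFD (-0.52, adjusted p = 0.0498) and against LFD+As (-0.54, adjusted p = 0.0286). Slco2b1 was called lower against LFD+As (-0.48, adjusted p = 0.0435). Over all genes 3.63% were called against HFD and 10.3% against LFD+As. Each of these Abcb11 and Slco2b1 calls ended with the span trend removed (-0.29, -0.30 and -0.28) and without either HFD+As array. Slc10a2 also fell from HFD, where both pools lay at 9.85 and 9.82, by 1.08 (adjusted p = 0.00354), and from LFD+As, with pools at 9.53 and 9.91, by 0.97 (adjusted p = 0.00736). The first of these calls ended without HFD+As replicate 1 (-0.94, adjusted p = 0.0540), and the second without LFD+As replicate 2 (-0.78) or HFD+As replicate 1 (-0.83).

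Of 23 tested regulators of the pathway, 3 rose and 7 fell in HFD+As against LFD (median -0.23), where 16.0% of all genes were called and the median was -0.10. Nr1i3, the xenobiotic receptor CAR, had signals of 9.73 and 9.32 in the LFD pools, 10.14 and 9.71 with LFD+As, 9.61 and 9.74 on HFD and 10.37 and 10.57 with HFD+As. Both HFD+As pools lay above all 6 others, a rise of 0.95 from LFD (SE 0.16, adjusted p = 0.00531), which held without any 1 array. Ppargc1a, a coactivator of fasting genes, fell by 0.85 (adjusted p = 0.00696), and this call ended without LFD replicate 1 (-0.65, adjusted p = 0.0784) and without HFD+As replicate 1 (-0.88, adjusted p = 0.0538). Onecut1, a hepatocyte factor gene, fell by 1.43 (adjusted p = 0.0338) and Nr1d1 by 0.98 (adjusted p = 0.0276). The Onecut1 call ended without LFD replicate 1 (-1.62), LFD replicate 2 (-1.24) or HFD+As replicate 1 (-0.64), and the Nr1d1 call without LFD replicate 1 (-1.0), LFD replicate 2 (-0.96), HFD+As replicate 1 (-1.15) or HFD+As replicate 2 (-0.81). Of these 10 calls, 2 held with the span trend removed, Nr1i3 and the oxysterol receptor gene Nr1h3. Nr1h3 rose by 0.56 (adjusted p = 0.0114), but its call ended without LFD replicate 2 (0.43) or HFD+As replicate 1 (0.51). Nr5a2, the LRH-1 gene, had signals of 9.88 and 9.83 in LFD and 9.28 and 9.50 in HFD+As, and fell by 0.47 (adjusted p = 0.0215). This call ended without LFD replicate 1 (-0.44), LFD replicate 2 (-0.50) or HFD+As replicate 1 (-0.36) and with the span trend removed (-0.21, adjusted p = 0.182). Hnf4a stood at -0.37 against LFD (adjusted p = 0.0543), and was called there when either HFD array was left out (adjusted p = 0.0473). It was lower by 0.41 against LFD+As (adjusted p = 0.0465), a call that ended without any 1 of the LFD, LFD+As and HFD+As arrays (-0.47 to -0.36) and with the span trend removed (-0.20). With each cluster tested singly 0 of the 10 and 0 of the 4 transporter calls held.

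**Figure D4:**
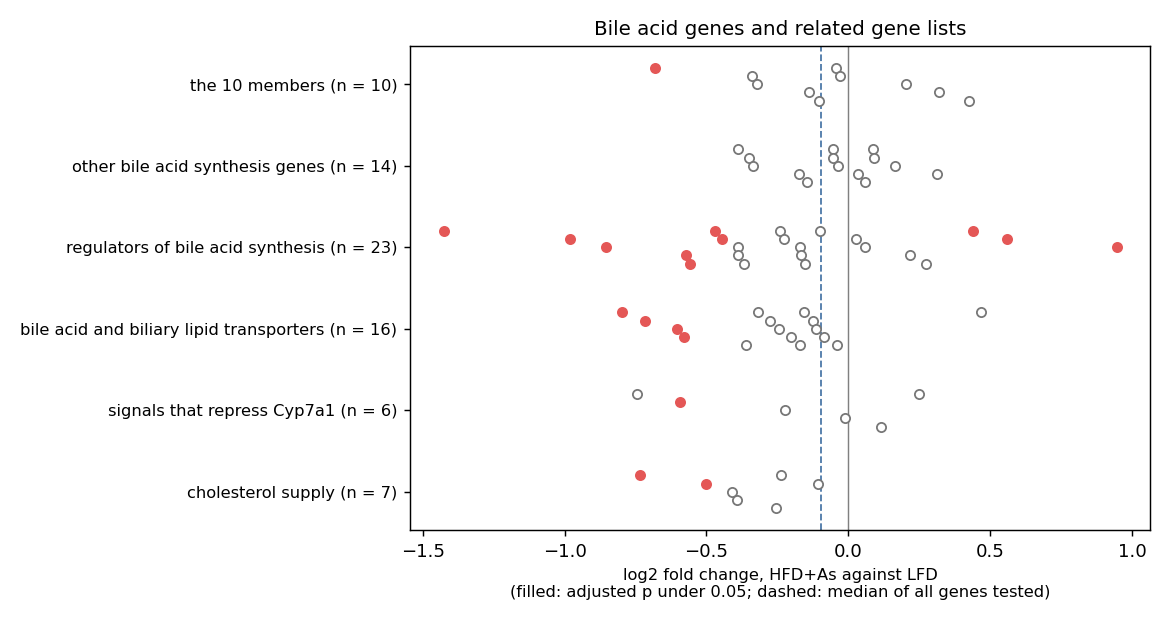
Log2 fold change of HFD+As against LFD for the 10 members and for the tested genes of 5 related lists (each row 1 list, each point 1 gene); filled points have an adjusted p under 0.05 and the dashed line is the median of all genes tested. Of the 16 transporters 15 lie below 0 and 4 are filled, and of the 10 members 1 is filled.

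Markers of the liver's cells were measured beside these results, and their counts in HFD+As against LFD stand beside 16.0% of all genes called and 66.6% negative. Hepatocyte markers, 10 of 10 tested, had mean signals of 13.83 and 13.84 in LFD and 13.68 and 13.75 in HFD+As, and 1 of 10 (Cps1) was called lower. Pericentral hepatocyte markers went from 12.02 and 12.01 to 11.74 and 11.83, with 1 of 8 (Rgn) called lower and 7 of 8 negative (median -0.23). Of 5 tested periportal markers, 1 (Pck1) was called higher and 1 (Hal) lower. Sinusoidal endothelial markers had means of 9.61 and 9.41 in LFD and 9.14 and 9.14 in HFD+As, and 3 of 8 (Stab1, Stab2 and Kdr) were called lower. Stellate cell markers had means of 9.23 and 9.18 in LFD and 9.09 and 8.90 in HFD+As, with 1 of 9 called lower.

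Macrophage markers had means of 9.42 and 9.33 in the LFD pools, 9.70 and 9.53 on HFD and 9.34 and 9.14 with HFD+As. In HFD+As against LFD 8 of 12 were negative (median -0.22), with 1 called higher and 1 lower. In HFD against LFD 10 of 12 were positive (median 0.22) and 0 were called. Over all genes 46.7% were negative there and 0.460% were called. In HFD+As against HFD 11 of 12 were negative (median -0.39) and 2 were called, where 72.3% of all genes were negative and 3.63% were called. Of 8 cholangiocyte markers 6 were on the array and 2 were tested. Krt7 had signals of 7.07 and 7.13 in LFD and 7.07 and 7.12 in HFD+As. Sox9 had 8.94 and 8.71 in LFD and 8.38 and 8.35 in HFD+As, a difference of -0.46 (adjusted p = 0.0537), and was called lower against LFD+As (-0.56, adjusted p = 0.0369). The first was called when either HFD array or either LFD+As array was left out. The second ended without LFD+As replicate 1 (-0.42) or 2 (-0.70) and without HFD+As replicate 1 (-0.58) or 2 (-0.55). It also ended with the span trend removed (-0.58, adjusted p = 0.0616), and 10.3% of all genes were called in that comparison. Of exocrine pancreas and erythroid markers 0 of 3 and 0 of 2 were called against LFD, and the 1 tested enterocyte marker was Slc10a2. The part of these cells in the results was not tested.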

How the data were processed

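The authors deposited a log2 signal for each transcript cluster and array; the submitters' processing notes name Affymetrix Expression Console 1.0. Background correction, normalization and summary methods are not given in the sources used here. Gene names came from the platform annotation, in which 21789 of 35556 clusters have 1 symbol, 1621 several and 12146 none. The brightest cluster stood for its gene, and the 60% of genes with the highest mean over 8 arrays were tested. Group means were fitted with limma 3.58.1 in R 4.3.3 to all 8 arrays, with 4 residual and 9.32 prior degrees of freedom, in 8 comparisons, each adjusted by Benjamini-Hochberg at 0.05. The code was tested on simulated data. The number of arrays limits the precision: the median standard error of a difference was 0.127. The 10 genes were named throughout. In HFD+As against LFD, up to 4 called genes of each list with the largest change were named, or up to 2 with the smallest unadjusted p. Calls of list genes in other comparisons were named only in part. Those left out include Nr1i3 (0.80), Ephx1 (0.53), Jun (-0.57), Insig1 (-0.53) and Sqle (-0.52) in HFD+As against HFD, where 3.63% of genes were called. Against LFD+As (10.3% of genes) they include Insig1 (-0.55) and Jun (-0.49). In the arsenite average (0.568% of genes) they include Nr1i3 (0.60). In the diet average (7.65% of genes) they include Slc51b (0.53), Slco1a4 (-0.57), Abcc2 (-0.36) and Il1b (0.30). All of these calls ended without the filter on dim genes. Nr1h3, Nr5a2, Hnf4a and the marker genes were named after their values were seen. Members and lists were chosen with earlier results of these data known. Alternatives covered the filter on dim genes, quantile normalization, gene span, variance trend, array weights, single clusters, a replicate block and each array left out; counts in the gene lists under these were added after seeing the data.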

Additional observations from a re-analysis of the deposited data

How the results depend on the processing

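Of 10 members, the number called in HFD+As against LFD went from 1 to 3 with the span trend removed. There 547 of 11963 genes were called higher and 589 lower. With every cluster tested singly the number went to 0, and 0 of 35556 clusters were called. In HFD+As against LFD+As the number of members went from 0 to 1 with an intensity trend in the variance (Slc27a5, adjusted p = 0.0427). That setting called 218 genes higher and 988 lower. The diet average went from 1 to 0 without the filter on dim genes, with array weights, with every cluster tested singly and with the replicate block (Slc27a5, adjusted p = 0.0602). The cause of these changes was not tested. Leaving out each array gave 0 to 1 called members in HFD+As against LFD, 0 to 1 against HFD, 0 to 1 against LFD+As and 0 to 3 in the diet average. The counts of LFD+As against LFD, HFD against LFD, the interaction and the arsenite average were 0 under all alternatives run. Over all genes, leaving out each array gave 206 to 2050 calls in HFD+As against LFD, 24 to 1121 against HFD, 17 to 1481 against LFD+As, 0 to 26 in LFD+As against LFD, 0 to 72 in HFD against LFD, 0 to 23 in the interaction, 87 to 1496 in the diet average and 1 to 145 in the arsenite average. The share of lower calls against HFD went from 89.6% to 46.5% with the span trend removed, when the median of all genes moved from -0.13 to 0.00. Same-numbered arrays had deviations that correlated between -0.217 and 0.179. With so few arrays per group, these values cannot decide whether the numbers pair the arrays. Whether same-numbered arrays share a batch was not tested.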

Other observations

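Of 7 tested genes of cholesterol supply, 2 fell and 0 rose in HFD+As against LFD (16.0% of all genes were called), and both calls ended with each cluster tested singly. Insig1, a brake on sterol synthesis, had signals of 12.77 and 12.54 in the LFD pools, 12.47 and 12.46 with LFD+As, 12.46 and 12.43 on HFD and 11.94 and 11.90 with HFD+As. It fell by 0.73 (adjusted p = 0.0039) and was called without any 1 array. Abca1, a cholesterol exporter, fell by 0.50 (adjusted p = 0.0188), a call that ended without LFD replicate 1 (-0.52), LFD replicate 2 (-0.48) or HFD+As replicate 1 (-0.36) and with the span trend removed (-0.24, adjusted p = 0.179). Of 6 tested genes of signals that repress Cyp7a1, Jun, an AP-1 subunit gene, fell by 0.59 (adjusted p = 0.00976), a call that ended without LFD replicate 1 (-0.60), LFD replicate 2 (-0.58) or HFD+As replicate 1 (-0.58).

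Over the 8 arrays, Slc27a5 was most like Acy3 (Pearson r 0.997), Lpcat2 (0.988) and Zfp36l1 (0.986), and Nr1h4 most like Homer2 (0.969), Rpp38 (0.964) and Tbcb (0.960). Cyp8b1 was most like Mtmr14 (0.940), Nlgn2 (0.928) and Cptp (0.883), with Cyp7b1 ninth among tested genes (0.847). Cyp7a1 was most like Krtap5-5 (0.926), Tuba8 (0.916) and Prune1 (0.914), and Nr0b2 most like Slc12a2 (0.957), Eif3l (0.924) and Fn3k (0.905). The highest of many correlations over 8 shared arrays is a description.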
